A study of Homo sapiens with 6 samples.

Results

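The 53 genes described here encode the proteins that copy chromosomal DNA. They are defined by gene name and role, with no threshold on their values, though they were chosen with earlier results of these data known. They cover origin recognition, licensing of origins, the replicative helicase, the kinases and cyclins that start S phase, the fork protection factors, the DNA polymerases, the sliding clamp with its loader, and the enzymes that finish lagging-strand fragments. All 53 were found among the 28503 lines of the deposited table, and all 53 were among the 12929 genes that reached 1 FPKM in at least 1 column and were kept. FPKM scales fragment counts for transcript length and library size, so levels can be compared between genes of a column. The columns differ in their summed FPKM, so comparisons between columns depend in part on the scaling.

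The RNA, selected for poly(A) tails, came from the prostate cancer line C4-2, a derivative of LNCaP, at passages 10 to 15. The conditions were vehicle, GSK126 (an inhibitor of the methyltransferase EZH2), astemizole (an antihistamine reported to separate EZH2 from its partner EED), a lentiviral scramble shRNA, and lentiviral EZH2 shRNA with 2 different hairpins. Vehicle is the labelled control of both compounds, and scramble shRNA that of the knockdown. All conditions share 1 cell line, and the sources used here give no doses or durations. There are 6 libraries, 1 for each hairpin and 1 for each other condition. The table carries 5 columns, and the EZH2 knockdown is 1 column whose making from the hairpin libraries is not stated, so it is used as the authors' value. With 1 value per condition there is no replicate error to set a difference against, and neither p-values nor standard deviations are given. The text calls a gene 2-fold lower or higher when the ratio of FPKM + 1 to the matched control passes 2, a log2 ratio of 1 in size; percentages of control are plain FPKM ratios. Where 5 FPKM values stand in a row, their order is vehicle, GSK126, astemizole, scramble shRNA, knockdown. All 8 prostate epithelial markers examined, KLK3 and KRT8 among them, stood above 1 FPKM in every column. EZH2 itself, the targeted gene, was at 26.5 FPKM under vehicle and 24.6 under scramble shRNA, against 17.5 under GSK126, 9.48 under astemizole and 3.35 under knockdown. With date-like names and short RNA genes left out, the FPKM values of a column added up to between 660114 and 794748. The table holds no read totals, so the depth is unknown.

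Replication begins when the origin recognition complex, with CDC6 and CDT1, loads the MCM2-7 ring onto DNA in G1. Cyclin E with CDK2 and the kinase CDC7 with DBF4 then turn that ring, joined by CDC45 and the GINS complex, into an active helicase. Primase starts each strand, polymerases delta and epsilon extend it on the PCNA clamp, and FEN1 and LIG1 join the lagging-strand pieces. Many of these genes are transcribed in late G1 and S phase under E2F factors, so that their RNA is known to be abundant in dividing tumour cells and low in resting cells.

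Replication genes were lower in all 3 perturbed columns, at the median least with GSK126 and most with knockdown. Of the 53 genes, 7 were at least 2-fold lower with GSK126, 42 with astemizole and 43 with EZH2 knockdown, and 0 were at least 2-fold higher in any of the 3. The GSK126 count hangs on the scaling: it was 0 with every column rescaled to the same total and 11 with a pseudocount of 0.1 FPKM. Among all 12929 genes kept, the shares at least 2-fold lower were 0.951% with GSK126, 5.49% with astemizole and 5.10% with knockdown, and the shares at least 2-fold higher were 1.05%, 3.53% and 1.94%. The median log2 ratio of the 53 genes was -0.72, -1.45 and -2.00 in the same order, beside -0.04, -0.06 and 0.03 for all genes kept. In plain FPKM the median member stood at 59.4% of control with GSK126, 33.2% with astemizole and 20.8% with knockdown. Added up, the 53 genes gave 2422 FPKM under vehicle and 2215 under scramble shRNA, against 1452 under GSK126, 922 under astemizole and 775 under knockdown. RNA from a whole culture cannot tell fewer cells in S phase from less RNA per cell.

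The order of the columns was the same for most members. In 50 of 53 genes all 3 perturbed values lay below both control values, as in 16.7% of all genes kept; the exceptions were the origin recognition subunits ORC3, ORC4 and ORC5. The log2 ratio was successively lower from GSK126 to astemizole to knockdown in 37 genes, beside 17.3% of all genes kept. In the other 16 the astemizole ratio was the lowest, a pattern not counted over all genes kept. The ratios of the 2 compounds share the vehicle value. The size of the differences was unequal too: 0 genes were 4-fold lower with GSK126, 6 with astemizole and 27 with knockdown, of which 6 were 8-fold lower. Over all genes kept, the shares at least 4-fold lower were 0.0773%, 1.20% and 1.59% in that order, and 0.580% were at least 8-fold lower with knockdown. No member was listed at 0 in any column, and 2, MCM10 and CLSPN, stood below 1 FPKM in the knockdown column.

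**Figure D1:**
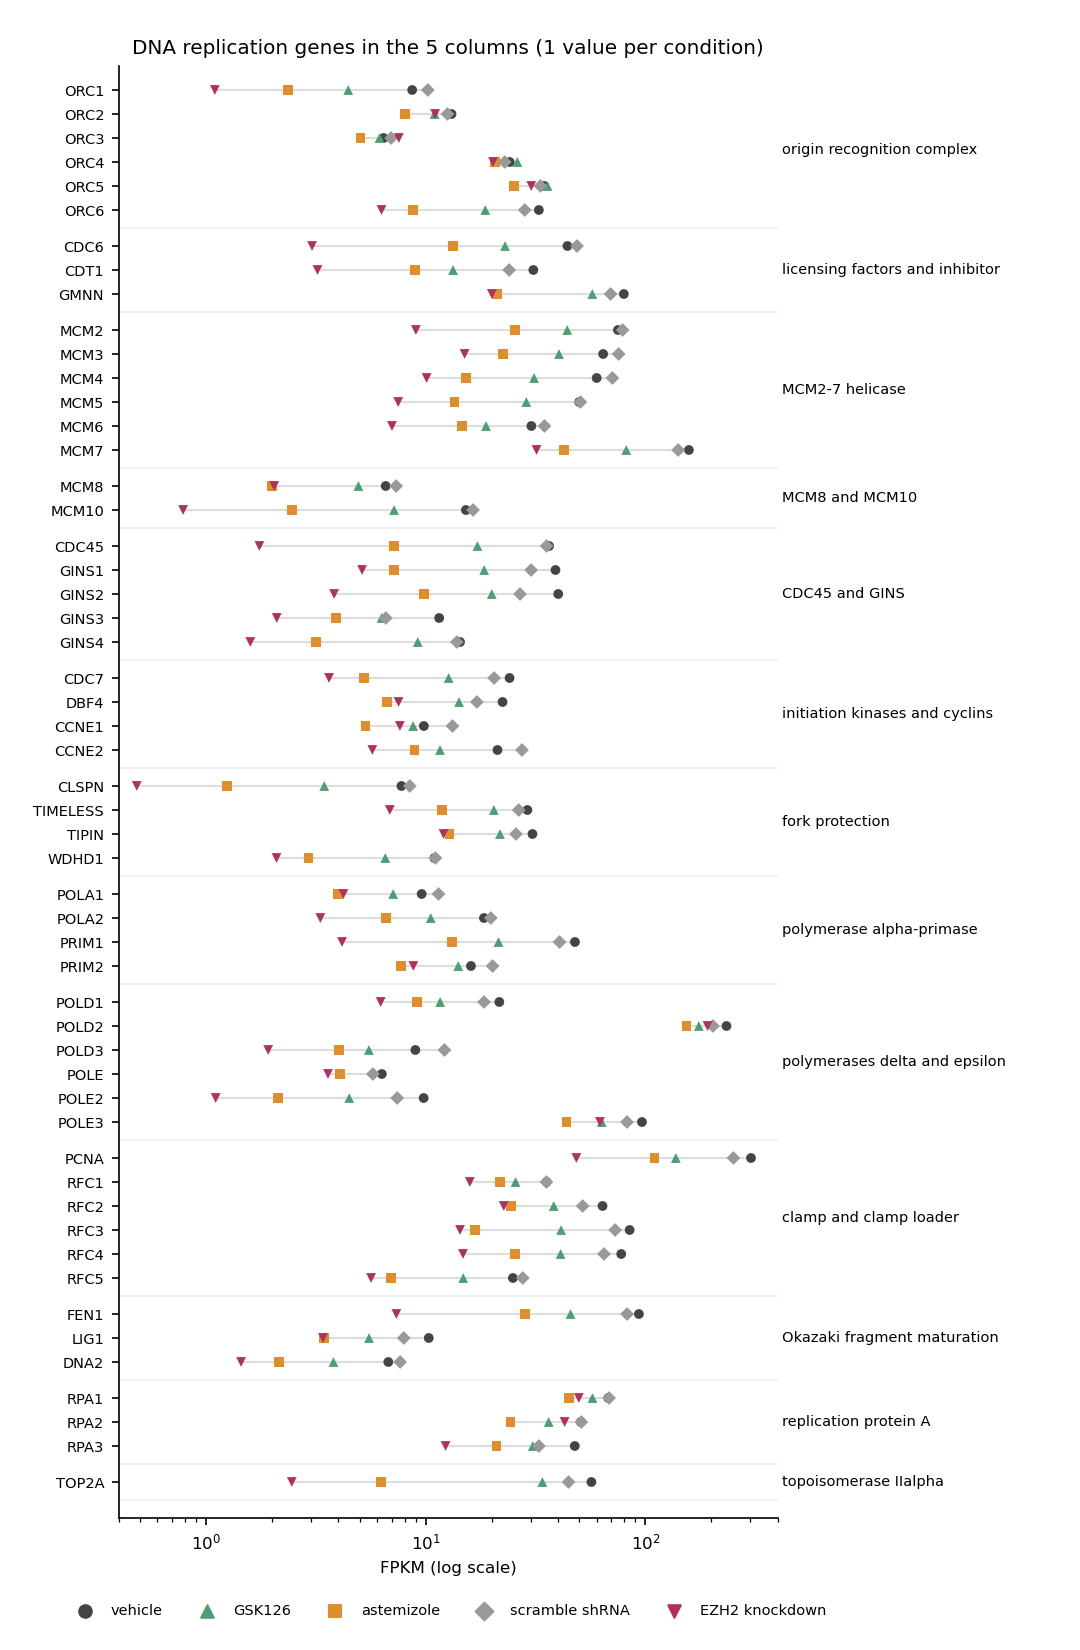
FPKM of each of the 53 genes (log axis) in the 5 columns, 1 symbol per condition, grouped by role. The knockdown symbol is the leftmost for most genes, whereas the symbols of ORC3, ORC4 and ORC5 lie close together.

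To show the regulatory sequence next to these values, promoter windows are printed for the 3 genes with the lowest knockdown ratio and the 2 with the ratio nearest 0, among genes that reach 5 FPKM in a column and have a window listed. The windows are RefSeq sequence of build GRCh38.p14, from 250 bases before to 50 bases after the annotated start, 5′ to 3′ on the strand of the gene. CDC45, which encodes a subunit of the active helicase, lies at chr22:19479670-19479969 on the plus strand and has the first of 3 listed windows shown. TOP2A, which encodes the topoisomerase that untangles replicated DNA, lies at chr17:40417847-40418146 on the minus strand. CDC6, the gene of the MCM loading factor, lies at chr17:40287629-40287928 on the plus strand. POLD2, an accessory subunit gene of polymerase delta, lies at chr7:44123499-44123798 on the minus strand, and ORC3 at chr6:87589885-87590184 on the plus strand. Capitals mark matches on either strand to the E2F words TTTCCCGC, TTTCGCGC, TTTGCCGC and TTTGGCGC, to the cell cycle homology word TTTGAA and to CCAAT.
CDC45: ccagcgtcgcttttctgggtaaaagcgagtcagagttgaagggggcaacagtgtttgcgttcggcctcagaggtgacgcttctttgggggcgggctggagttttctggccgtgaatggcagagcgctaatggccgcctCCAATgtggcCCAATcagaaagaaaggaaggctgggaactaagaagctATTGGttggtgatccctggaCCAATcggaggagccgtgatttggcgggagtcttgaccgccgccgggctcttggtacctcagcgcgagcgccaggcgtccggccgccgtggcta
TOP2A: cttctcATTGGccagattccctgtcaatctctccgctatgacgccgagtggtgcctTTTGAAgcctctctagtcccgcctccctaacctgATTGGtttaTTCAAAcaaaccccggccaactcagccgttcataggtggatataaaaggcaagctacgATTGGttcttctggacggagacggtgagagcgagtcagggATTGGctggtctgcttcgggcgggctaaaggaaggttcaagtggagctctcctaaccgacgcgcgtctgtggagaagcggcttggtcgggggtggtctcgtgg
CDC6: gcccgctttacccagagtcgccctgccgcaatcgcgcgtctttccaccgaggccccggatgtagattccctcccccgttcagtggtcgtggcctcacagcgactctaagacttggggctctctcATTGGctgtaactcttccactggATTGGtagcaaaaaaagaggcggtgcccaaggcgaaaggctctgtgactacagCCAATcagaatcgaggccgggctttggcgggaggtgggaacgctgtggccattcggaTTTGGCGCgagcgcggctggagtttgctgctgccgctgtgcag
POLD2: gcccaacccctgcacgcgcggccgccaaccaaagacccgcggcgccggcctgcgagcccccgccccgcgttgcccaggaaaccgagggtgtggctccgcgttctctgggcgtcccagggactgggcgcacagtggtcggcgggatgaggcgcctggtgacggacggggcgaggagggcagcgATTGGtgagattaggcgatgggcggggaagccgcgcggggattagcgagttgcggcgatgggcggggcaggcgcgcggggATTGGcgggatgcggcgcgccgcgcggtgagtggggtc
ORC3: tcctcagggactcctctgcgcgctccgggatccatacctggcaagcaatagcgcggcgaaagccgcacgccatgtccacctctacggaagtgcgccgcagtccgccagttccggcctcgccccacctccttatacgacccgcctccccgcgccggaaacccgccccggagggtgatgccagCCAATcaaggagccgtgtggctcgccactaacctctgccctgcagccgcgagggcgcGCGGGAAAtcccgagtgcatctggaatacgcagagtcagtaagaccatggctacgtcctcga

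These 5 windows do not sort by the listed words. CDC45 held 4 CCAAT matches and no E2F or TTTGAA match; TOP2A held 4 CCAAT and 2 TTTGAA matches; CDC6 held 3 CCAAT matches and 1 E2F match. POLD2 had 2 CCAAT matches, and ORC3 had 1 CCAAT and 1 E2F match although its knockdown value was 108% of control. Windows were listed for 45 of the 53 genes and not for MCM4, MCM5, GINS4, CCNE2, POLD3, DNA2, RPA2 and RPA3. A gene was counted where any of its windows held a match. An E2F word was present in 22 of the 45 genes (48.9%), beside 618 of 9097 kept genes with a window (6.79%) and 3.99% of all 27305 genes with a window. CCAAT was present in 26 of the 45 (57.8%, beside 43.7% of kept genes and 39.7% of all genes with a window). TTTGAA was present in 3, DBF4, POLE3 and TOP2A (6.67%, beside 13.0% and 18.2%). Of the 36 genes with a window that were 2-fold lower in the knockdown, 20 held an E2F word, and of the 9 within 2-fold, 2 did, ORC3 and POLE. The E2F words can overlap one another on opposite strands. The list of E2F words is narrow. The CDC45 and CDC6 windows both hold the letters tttggcgg, which differ from TTTGGCGC only in the last letter and were not counted. A match describes letters only, not a binding site, and a window without a match may hold a close variant.

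The origin recognition complex was split into subunits that were low and subunits near their controls. ORC1, the ATPase subunit whose level varies through the cell cycle, stood at 8.67 FPKM under vehicle and 10.2 under scramble shRNA, against 4.43 under GSK126, 2.36 under astemizole and 1.10 under knockdown. ORC6, the smallest and most loosely held subunit, stood at 32.7, 18.7, 8.77, 28.2 and 6.29 FPKM in that order. Both were lowest in the knockdown column, at 10.7% and 22.3% of control, and with astemizole they were at 27.2% and 26.8%. ORC2, ORC3, ORC4 and ORC5, which form the core of the ring, were all within 2-fold in each comparison. ORC3 was at 6.42, 6.16, 5.04, 6.95 and 7.54 FPKM, its highest value being that of the knockdown. ORC4 was at 24.1, 26.1, 20.7, 22.9 and 20.2 FPKM, and ORC5 at 34.6, 35.8, 25.3, 33.3 and 30.2. For both the GSK126 value was the highest of the 5. The level of ORC4 was 2.24 times that of ORC1 with scramble shRNA and 18.5 times with knockdown.

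The licensing factors were low in both deeper comparisons. CDC6 stood at 44.2 FPKM under vehicle and 48.8 under scramble shRNA, against 23.0 under GSK126, 13.4 under astemizole and 3.03 under knockdown, which is 6.21% of its control and a log2 ratio of -3.63. CDT1, which brings the MCM ring to the origin, stood at 30.9, 13.3, 8.92, 24.0 and 3.21 FPKM, and its log2 ratio of -1.16 was the lowest of all 53 genes with GSK126. GMNN encodes geminin, the inhibitor that holds CDT1 back after S phase has begun. It was at 79.8, 57.3, 21.1, 69.4 and 20.0 FPKM, the astemizole and knockdown values lying close together. The ratio of GMNN to CDT1 was 2.58 under vehicle and 2.90 under scramble shRNA, against 4.31 under GSK126, 2.36 under astemizole and 6.23 under knockdown, so the inhibitor was at the higher fraction of control with GSK126 and knockdown but not with astemizole.

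All 6 subunits of the MCM2-7 ring were at least 2-fold lower with astemizole and with knockdown, and 0 of 6 with GSK126. MCM2 stood at 75.0 FPKM under vehicle and 78.8 under scramble shRNA, against 44.1 under GSK126, 25.5 under astemizole and 9.01 under knockdown. MCM3 stood at 64.2, 40.4, 22.5, 75.6 and 15.0 FPKM, and MCM4 at 60.0, 31.1, 15.2, 70.8 and 10.1. The 3 genes had the same order of columns. MCM5 stood at 49.97, 28.7, 13.5, 50.6 and 7.49 FPKM. MCM6 stood at 30.3, 18.8, 14.6, 34.7 and 7.02 FPKM. MCM7, the most abundant of the ring and host of a microRNA cluster, stood at 158, 81.8, 42.5, 141 and 31.9 FPKM. The knockdown values ran from 11.4% of control for MCM2 to 22.6% for MCM7, and the GSK126 values from 51.8% for MCM7 to 63.0% for MCM3. MCM6 had the highest fraction of control with astemizole, 48.3%, just past the 2-fold line. The highest of the 6 levels was 5.22 times the lowest under vehicle, 3.14 times under astemizole and 4.55 times under knockdown.

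The ring genes with a listed window each held E2F words, and 1 match per gene is shown with 10 bases on either side, the word in capitals, from RefSeq on GRCh38.p14. The MCM2 stretch is chr3:127598403-127598430 on the plus strand, and the others, MCM3 at chr6:52284729-52284756, MCM6 at chr2:135876516-135876543 and MCM7 at chr7:100101389-100101416, are on the minus strand.
MCM2: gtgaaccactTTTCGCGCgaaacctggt
MCM3: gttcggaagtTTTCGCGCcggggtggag
MCM6: attggtcaggTTTGGCGCgaaatctcca
MCM7: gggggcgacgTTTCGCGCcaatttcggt

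In MCM3 and MCM7 the words shown begin 4 and 9 bases before the annotated start, and in MCM6 the word shown begins 90 bases before it. The E2F words of MCM2 and MCM6 overlap a second word on the other strand.

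The other helicase factors included the lowest knockdown ratio of the set. CDC45 stood at 36.4 FPKM under vehicle and 35.5 under scramble shRNA, against 17.2 under GSK126, 7.19 under astemizole and 1.75 under knockdown, 4.92% of control. Its log2 ratio of -3.73 was the lowest knockdown ratio of the 53 genes on the FPKM + 1 scale. In plain FPKM MCM10 was the lowest, at 4.78% of control. MCM10, which helps to activate the loaded helicase, stood at 15.2, 7.17, 2.46, 16.4 and 0.785 FPKM. GINS1 was at 39.0, 18.4, 7.15, 30.2 and 5.13 FPKM and GINS2 at 40.1, 20.0, 9.81, 26.9 and 3.82; GINS1 had the second lowest astemizole ratio, -2.29. GINS4 was at 14.3, 9.19, 3.17, 13.8 and 1.59 FPKM. GINS3 differed between the controls themselves, at 11.5 FPKM with vehicle and 6.58 with scramble shRNA, and was at 6.29 with GSK126, 3.91 with astemizole and 2.10 with knockdown. Its knockdown log2 ratio was -1.29 against scramble shRNA and -2.01 against vehicle, and its GSK126 ratio was -0.78 against vehicle and -0.06 against scramble shRNA. MCM8, a relative of the ring subunits that works in recombination, had log2 ratios of -0.35, -1.34 and -1.45 with GSK126, astemizole and knockdown.

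Among the genes that trigger initiation, the 2 cyclin E genes went apart. CCNE2 stood at 21.2 FPKM under vehicle and 27.4 under scramble shRNA, against 11.6 under GSK126, 8.89 under astemizole and 5.71 under knockdown. CCNE1 stood at 9.80, 8.76, 5.32, 13.2 and 7.62 FPKM and was within 2-fold in all 3 comparisons. CCNE2 was 2.16 times CCNE1 with vehicle and 2.07 times with scramble shRNA, and 0.749 times with knockdown, where CCNE1 was the higher of the pair. The kinase gene CDC7 was at 24.1, 12.7, 5.23, 20.5 and 3.62 FPKM, and DBF4, its activating subunit, at 22.4, 14.2, 6.63, 17.1 and 7.52. CDC7 was the lower of the pair in each perturbed column, at 17.7% of control with knockdown against 44.0% for DBF4.

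The fork protection genes were all 2-fold lower with astemizole and with knockdown, 4 of 4 in each. CLSPN encodes claspin, which relays stalled-fork signals to the checkpoint. It stood at 7.75 FPKM under vehicle and 8.46 under scramble shRNA, against 3.45 under GSK126, 1.24 under astemizole and 0.483 under knockdown, 5.71% of control; on the FPKM + 1 scale this low gene had -2.67, and with a pseudocount of 0.1 FPKM it had -3.88. TIPIN stood at 30.6, 21.8, 12.8, 25.8 and 12.0 FPKM, the highest fraction of control of the group with knockdown, 46.8%. Its partner TIMELESS was at 25.9% of control there, and WDHD1, which ties polymerase alpha to the helicase, at 18.9%.

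**Figure D2:**
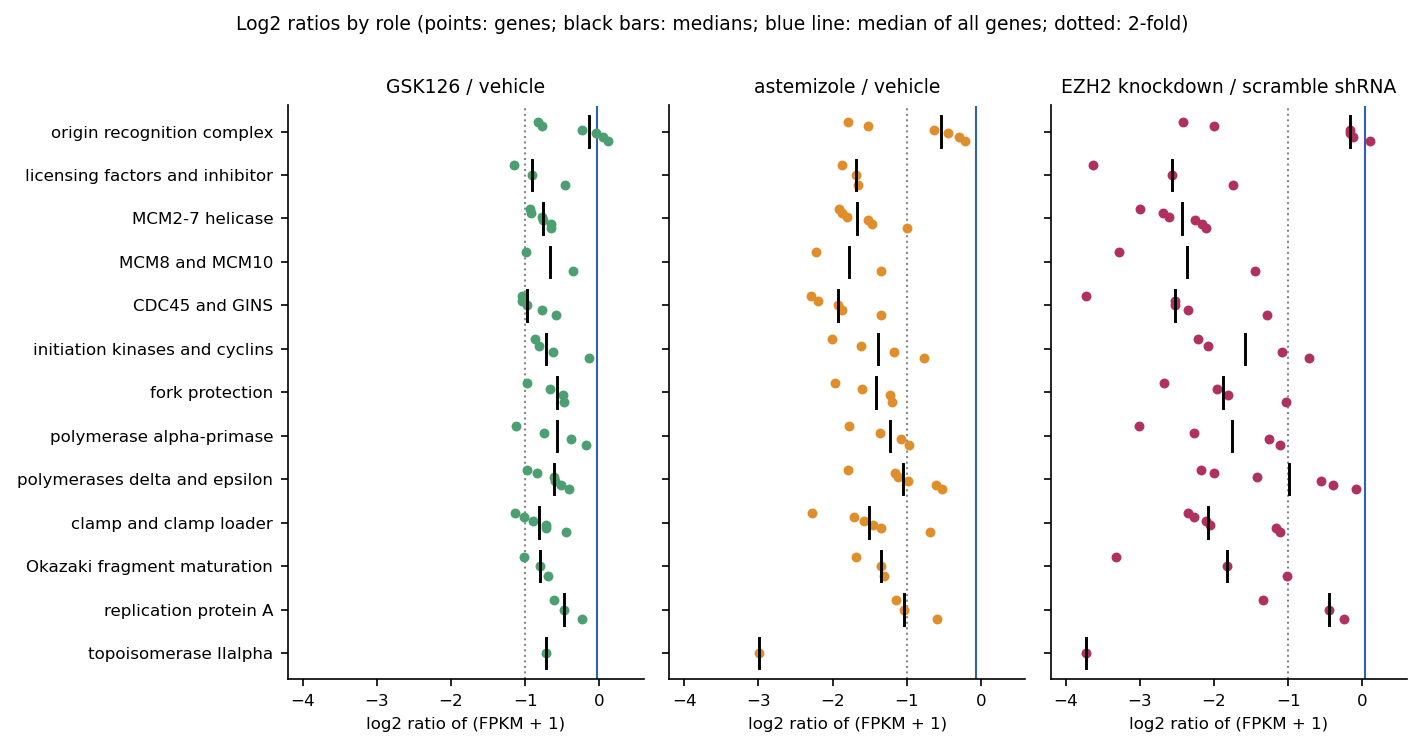
Log2 ratio of FPKM + 1 to the matched control for each gene (points) by role, with the median of each role (black bars), the median of all 12929 genes (blue line) and the 2-fold line (dotted). Origin recognition, polymerases delta and epsilon and replication protein A spread across the 2-fold line in the knockdown panel, where every MCM2-7 point lies beyond it.

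Polymerase subunits differed widely within 1 enzyme. In polymerase alpha-primase the catalytic primase gene PRIM1 stood at 47.8 FPKM under vehicle and 40.7 under scramble shRNA, against 21.4 under GSK126, 13.2 under astemizole and 4.16 under knockdown. The regulatory primase gene PRIM2 stood at 16.1, 14.1, 7.72, 20.1 and 8.78 FPKM. PRIM1 was 2.02 times PRIM2 with scramble shRNA and 0.473 times with knockdown, so the order of the 2 genes was reversed in that column. POLA1, the catalytic subunit gene, was at 36.9% of control with knockdown and its accessory partner POLA2 at 16.7%.

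In polymerase delta, which copies the lagging strand, POLD2 was near its control with knockdown and its partners were not. POLD2 stood at 234 FPKM under vehicle and 203 under scramble shRNA, against 175 under GSK126, 154 under astemizole and 192 under knockdown. The catalytic subunit gene POLD1 stood at 21.6, 11.6, 9.13, 18.4 and 6.23 FPKM and POLD3 at 8.96, 5.51, 4.04, 12.2 and 1.92. POLD3 was at 15.7% of control with knockdown against 94.5% for POLD2, and POLD2 was 16.7 times POLD3 with scramble shRNA and 100.2 times with knockdown. In polymerase epsilon, which copies the leading strand, the accessory gene POLE2 was the lowest. It was at 9.78, 4.48, 2.13, 7.41 and 1.10 FPKM, while the catalytic gene POLE was at 6.31, 4.09, 4.06, 5.74 and 3.59, within 2-fold throughout. POLE3, a histone-fold subunit also found in a chromatin remodelling complex, was at 96.4, 63.3, 43.7, 82.5 and 62.1 FPKM. POLE3 was at 45.3% of control with astemizole and 75.3% with knockdown.

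PCNA, the sliding clamp that tethers polymerases to DNA, was the most abundant of the 53 genes in both control columns. It stood at 303 FPKM under vehicle and 252 under scramble shRNA, against 138 under GSK126, 110.1 under astemizole and 48.5 under knockdown, where POLD2, POLE3 and RPA1 exceeded it. The clamp loader genes were lower as well, RFC1 least. RFC1, the large subunit, stood at 35.5, 25.6, 21.7, 35.4 and 15.9 FPKM, and RFC3 at 84.8, 41.3, 16.7, 72.8 and 14.3. RFC3 had the third lowest astemizole ratio, -2.27, and the same value, -2.27, with knockdown. RFC2, RFC4 and RFC5 had knockdown ratios of -1.16, -2.06 and -2.11 and astemizole ratios of -1.35, -1.57 and -1.71.

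Of the enzymes that process lagging-strand fragments, FEN1 was the lowest in the knockdown. This flap nuclease gene stood at 93.4 FPKM under vehicle and 82.6 under scramble shRNA, against 45.6 under GSK126, 28.3 under astemizole and 7.34 under knockdown, 8.89% of control. LIG1, the ligase that seals the fragments, stood at 10.3, 5.51, 3.43, 7.94 and 3.40 FPKM, nearly the same value under astemizole and knockdown. DNA2, a nuclease and helicase, had log2 ratios of -0.69, -1.30 and -1.82. Replication protein A coats single-stranded DNA, and its subunits were again unequal. RPA1 was at 67.8, 57.4, 44.7, 68.3 and 49.8 FPKM, RPA2 at 50.8, 36.3, 24.3, 51.1 and 42.9, and RPA3 at 47.7, 30.7, 21.0, 32.7 and 12.3. RPA3 was at 37.6% of control with knockdown, against 83.9% for RPA2 and 72.8% for RPA1. TOP2A stood at 56.8 FPKM under vehicle and 44.7 under scramble shRNA, against 34.0 under GSK126, 6.26 under astemizole and 2.45 under knockdown. Its astemizole log2 ratio of -2.99 was the lowest of the 53 genes. Its knockdown ratio of -3.73 was the second lowest on the FPKM + 1 scale, while with GSK126 25 members had a lower ratio than its -0.73.

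**Figure D3:**
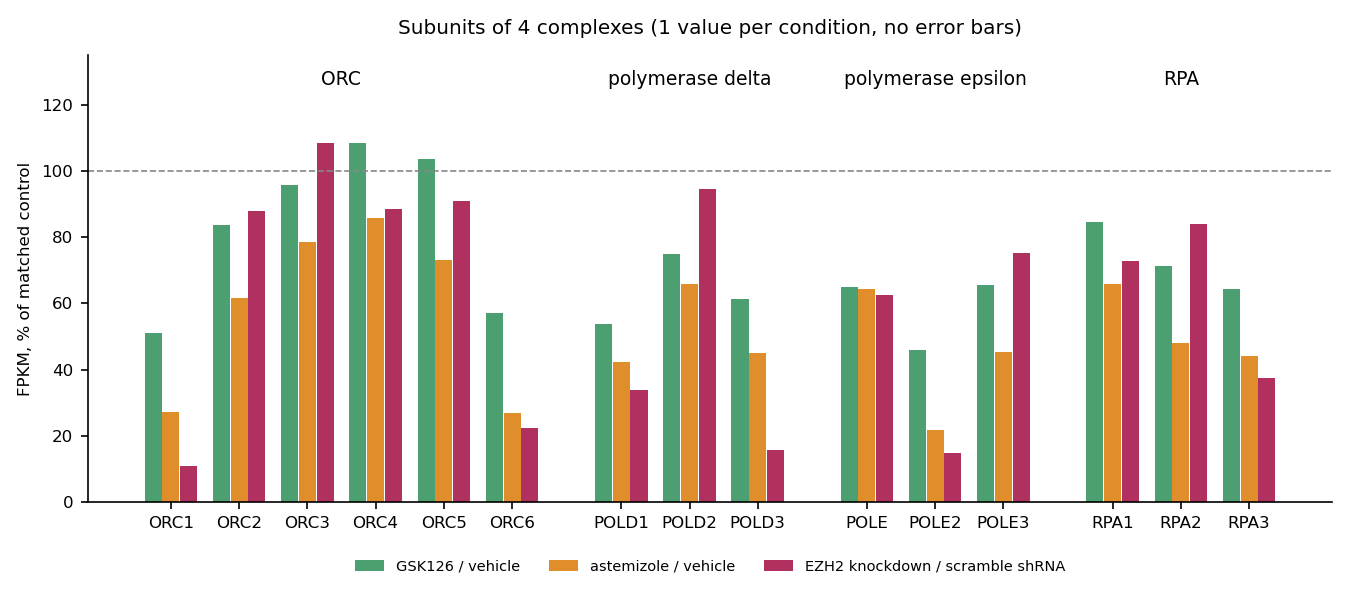
FPKM as a percentage of the matched control for the subunits of 4 complexes, 1 bar per comparison and no error bars, since each condition has 1 value. With knockdown ORC1 is at 10.7% and ORC3 at 108%, POLD3 at 15.7% and POLD2 at 94.5%, POLE2 at 14.9% and POLE3 at 75.3%, and RPA3 at 37.6% and RPA2 at 83.9%.

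GSK126 against vehicle compares an inhibitor of the enzyme activity of EZH2 with its control, and that activity was not measured in these RNA values. The 7 genes at least 2-fold lower were CDT1, PCNA, PRIM1, CDC45, GINS1, RFC3 and FEN1. In the knockdown, which has its own control, all 7 were at least 2-fold lower too. So were 43 of all 53 members there, beside 5.10% of all genes kept. The 7 genes are the edge of a continuous range and no separate group. RFC3 and FEN1 were just inside the line at -1.02 each, and MCM10 and CLSPN just outside at -0.99 and -0.98. Below 0 were 51 genes, and the exceptions were ORC4 at 0.11 and ORC5 at 0.05. The median of all genes kept was also below 0, at -0.04, and the share of all genes below 0 was not counted. With every column rescaled to the same total, 48 were below 0, ORC3, CCNE1 and PRIM2 being above it as well. That rescaling, which left 0 of 53 genes 2-fold lower, moved the median of all genes from -0.04 to 0.15, and put the median of the 53 genes at -0.52. The 10 liver marker genes examined summed to 181 FPKM with GSK126, 21.0 with vehicle and 2.09 to 5.69 in the other columns; 9 of 10 were at 1 FPKM or more with GSK126, and their part in the ratios was not tested.

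Astemizole against vehicle compares a compound reported to part EZH2 from EED with its control. Knockdown against scramble shRNA compares shRNA aimed at EZH2 with its own control. The values are RNA levels, and the parting of EZH2 from EED was not measured in them. These 2 comparisons share no control column. At least 2-fold lower in both were 40 genes, in astemizole only POLE3 and RPA2, in knockdown only PRIM2, POLD3 and RFC1, and in neither ORC2, ORC3, ORC4, ORC5, CCNE1, POLD2, POLE and RPA1. Of all genes kept, 3.09% were at least 2-fold lower in both, 2.41% in astemizole only, 2.02% in knockdown only and 92.5% in neither. PRIM2 and POLD3 missed the line with astemizole by little, at -0.97 and -0.98, and MCM6 was just inside it. In the knockdown no gene lay near the line from outside, the nearest being CCNE1 at -0.72, and TIPIN and LIG1 lay just inside at -1.04 and -1.02. Across the 53 genes the astemizole and knockdown ratios had a Pearson correlation of 0.82 and a Spearman correlation of 0.79, given as a description, since genes of 1 library are not independent. The knockdown ratio was the lower by most for CDC6, at -3.63 against -1.65, and FEN1, at -3.32 against -1.69. The astemizole ratio was lower than the knockdown ratio for 16 genes, and the share of all genes kept was not counted. Among the 16 were POLE3 at -1.12 against -0.40, RPA2 at -1.03 against -0.25, DBF4 at -1.61 against -1.09 and POLD2 at -0.60 against -0.08.

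**Figure D4:**
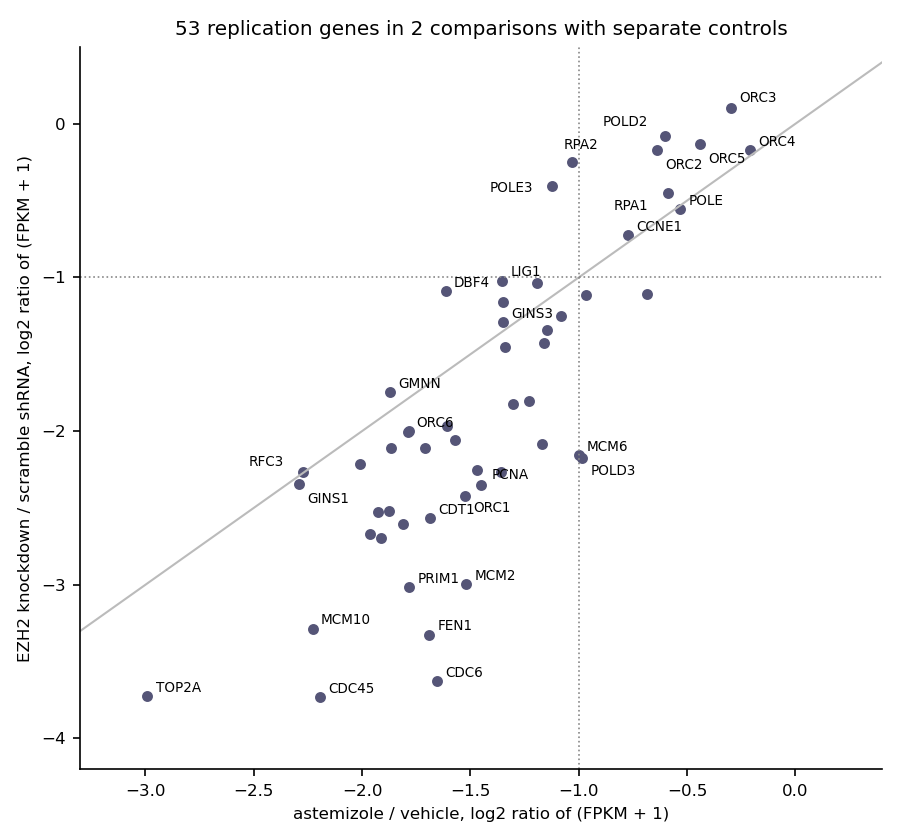
Log2 ratios of FPKM + 1 for the 53 genes, astemizole over vehicle (x axis) and EZH2 knockdown over scramble shRNA (y axis), with the line of equal ratios and dotted 2-fold lines. CDC6, FEN1 and CDC45 lie far below the line of equal ratios, and POLE3, RPA2, POLD2 and DBF4 above it.

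The 2 control columns, which differ in vehicle against lentiviral shRNA, were close for most of these genes. Scramble shRNA against vehicle had 0 of 53 genes at least 2-fold lower, beside 0.851% of all genes kept, and the median ratio was -0.06, beside -0.11 for all genes. Single members ranged from -0.72 for GINS3 to 0.40 for POLD3, with CCNE1 also at 0.40 and GINS2 at -0.56. The median GSK126 ratio of the 53 genes, -0.72, was the size of the largest single difference between the controls, but a median and a single gene are unlike measures. Like for like, the medians were -0.72 with GSK126 and -0.06 between the controls. The lowest single ratios were -1.16 for CDT1 and -0.72 for GINS3. Rescaled to equal totals, the median of all genes between the controls moved from -0.11 to 0.13 and that of the 53 genes from -0.06 to 0.20.

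Other genes of replication were also lower, with medians nearer 0. The lists compared from here on were chosen with earlier results of these data known. In a list of 26 further replication genes, 2 were at least 2-fold lower with GSK126, 13 with astemizole and 14 with knockdown, 0 were 2-fold higher, and the medians were -0.53, -1.01 and -1.18. The lowest with knockdown was KIAA0101, which encodes a PCNA-binding factor, at -3.44, and next CCNA2, the gene of cyclin A2, at -3.33. The highest were MCM9, the partner of MCM8, at 0.31 and LRWD1, a factor that binds the origin recognition complex, at 0.22. TOP2B, the topoisomerase paralogue that is not tied to proliferation and was chosen after its values were seen, was at 41.4, 35.4, 25.8, 39.2 and 33.6 FPKM, so TOP2A was 1.37 times TOP2B with vehicle and 0.0730 times with knockdown.

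Polymerase and ligase genes outside chromosomal replication, used mainly in repair and lesion bypass, were near their controls. The list also held POLG, the polymerase gene of mitochondrial DNA, and XRCC1, which encodes neither a polymerase nor a ligase. None of 13 was past 2-fold on the FPKM + 1 scale in any of the 3 comparisons, with medians of -0.05, -0.06 and 0.19. REV3L, the catalytic subunit of polymerase zeta, had the highest knockdown ratio at 0.88, and POLI followed at 0.55. The primase-polymerase gene CCDC111, now PRIMPOL, was the lowest at -0.63, followed by the repair ligase LIG3 at -0.57. With astemizole POLB and CCDC111 were the lowest, at -0.89 each, and 4 of the 13 were above 0. In plain FPKM CCDC111 was at 47.5% of control with astemizole, past 2-fold. Mitotic genes had lower medians than the replication genes: 10 of 10 were at least 2-fold lower with astemizole and with knockdown, at medians of -3.06 and -3.37, and 2 of 10 with GSK126, at -0.92. The kinesin gene CENPE had the lowest knockdown ratio, -4.14, and CCNB1 the highest, -2.31. Between the controls the mitotic genes had a median of -0.67, beside -0.06 for the replication genes.

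**Figure D5:**
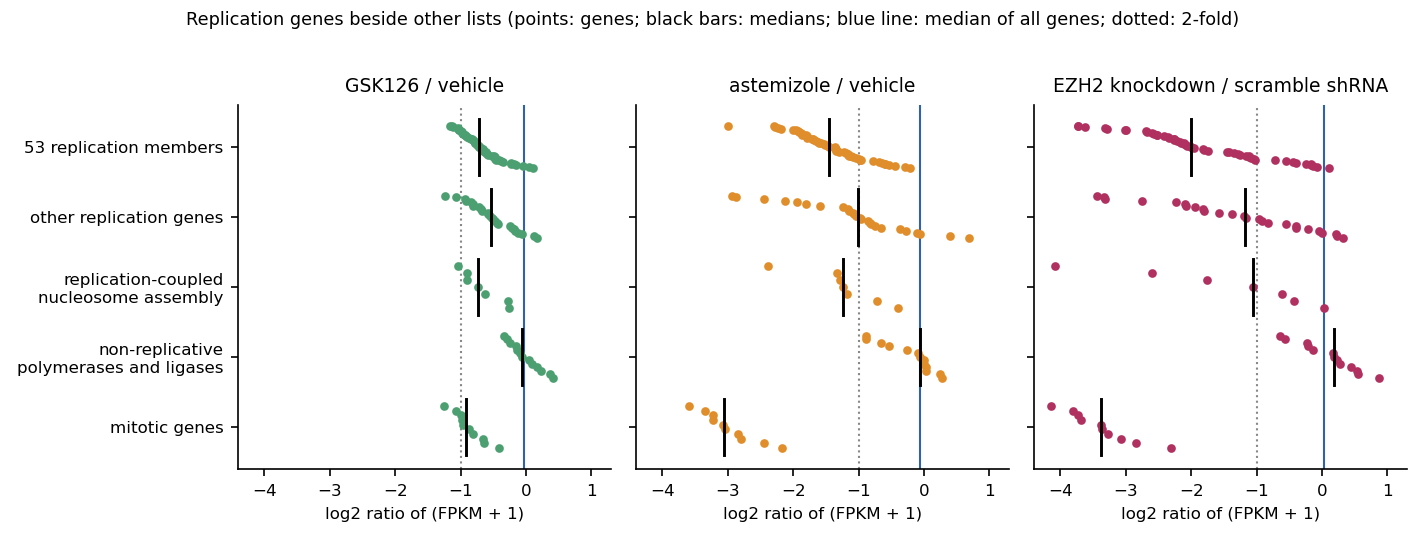
Log2 ratios of FPKM + 1 for the 53 replication genes and 4 other lists, with list medians (black bars), the median of all genes (blue line) and the 2-fold line (dotted). The list labelled non-replicative polymerases and ligases lies around the median of all genes. Mitotic genes lie beyond most replication genes with astemizole and knockdown.

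Some of these values may include reads of other genes, since the strand and multiple-match settings of the counting are unknown from the sources used here. In GENCODE 29, used for names and neighbours only, 7 members share over 10% of their exon bases with another gene: MCM2, GINS3, GINS4, CCNE2, POLA2, PRIM1 and POLD1. Another 7 have a named pseudogene: DBF4, POLD2, PCNA, RFC3, RFC5, FEN1 and RPA2.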

How the data were processed

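The deposited values are FPKM per gene, per the labels. TopHat2, Cuffdiff and build hg19 are listed, without versions, in the submitters' processing notes; the sources used here give no annotation or filter. The authors' table has 28503 lines and 5 columns of values. Names turned into dates (27) and genes of short RNAs (1689) were left out, also from the column sums and from the totals used in rescaling. A gene was kept where any column reached 1 FPKM, which left 12929. Ratios were log2 of FPKM + 1 over the matched control, a scale that understates differences of low genes. Ranks of ratios, and the choice of promoters by them, hold for that scale. Depth is unknown: from the spacing of values under 0.5 FPKM, 1 read was worth 0.946 times the vehicle value with GSK126, 1.05 with astemizole and 0.859 with scramble shRNA. Companion lists, role groups and members were chosen with earlier results of these data known. Named were all members by role, EZH2, and in each other list those with the lowest and highest knockdown ratios; TOP2B was also named after its values were seen. Settings tried were another pseudocount, stricter and no filters, rescaling to equal totals, centring and the other control. The calls were tested on simulated data. The planted changes lay past the 2-fold line and carried no noise. They check the calculation, not the error of single libraries. Python with pandas 2.3.3 and numpy 2.4.6 was used.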

Additional observations from a re-analysis of the deposited data

How the results depend on the processing

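No paired analysis was possible because each condition has 1 value, the hairpin libraries of the knockdown sharing 1 column. The number of replication genes at least 2-fold lower with GSK126, 7, was 11 with a pseudocount of 0.1 FPKM and 0 after rescaling each column to equal totals; centred on all genes it was 5 and against scramble shRNA 8. The counts for astemizole lay between 40 and 44 and those for knockdown between 42 and 43 in every setting, and scramble against vehicle gave 0 in each. No gene past 2-fold turned its sign. Rescaling turned the GSK126 ratios of ORC3 to 0.14, CCNE1 to 0.05 and PRIM2 to 0.02 and the origin recognition median from -0.14 to 0.05; the scramble against vehicle median of -0.06 became 0.20 with it and 0.05 when centred. Of 159 single-gene ratios per setting, 4 moved by over 1.5-fold with the pseudocount of 0.1 FPKM, all in the knockdown (ORC1 to -3.11, MCM10 to -4.22, CLSPN to -3.88, POLE2 to -2.64), and 3 with the other control, all GINS3; the median of MCM8 and MCM10 moved to -3.01. The small pseudocount also raised the counts over all genes, from 123 lower and 136 higher to 236 and 370 with GSK126, from 456 to 750 higher with astemizole, from 660 lower and 251 higher to 1003 and 488 with knockdown, and from 110 to 303 lower with scramble. Rescaling gave 70 lower and 285 higher with GSK126, and the other control 51 lower; a minimum of 5 FPKM gave 73 lower with scramble. One value per condition and unknown depth limit all ratios, above all of genes under 1 FPKM.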

Other observations

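Subunits and paralogues next to the replication fork were also unequal. Among 7 genes of replication-coupled nucleosome assembly, 1, 5 and 4 were at least 2-fold lower with GSK126, astemizole and knockdown, at medians of -0.73, -1.24 and -1.06. The histone chaperone ASF1B stood at 63.9 FPKM under vehicle and 66.5 under scramble shRNA, against 30.4 under GSK126, 11.4 under astemizole and 3.01 under knockdown, while its paralogue ASF1A stood at 18.2 and 14.9 in those controls and at 14.8, 13.6 and 15.2 in the perturbed columns. ASF1A was therefore the less abundant of the pair with both controls and the more abundant with astemizole and knockdown. In ribonuclease H2, which removes ribonucleotides from DNA, the catalytic subunit gene RNASEH2A had log2 ratios of -1.24, -2.45 and -2.75, while RNASEH2B had -0.72, -0.75 and -0.40 and RNASEH2C -0.42, -0.36 and -0.55. POLD4, the smallest subunit of polymerase delta, was at 37.4 FPKM under vehicle and 60.5 under astemizole, its highest value being that of astemizole, where the other polymerase delta genes had their lowest or second lowest. The genes of ribonuclease H2 and POLD4 were chosen for mention after their values were seen.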
